A study of Mus musculus with 9 samples.

Results

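The cytosolic ribosomal protein genes were taken as all probe sets whose annotation gives exactly 1 gene symbol made of Rpl or Rps and a digit, or Rpsa, Rplp0, Rplp1 or Rplp2, without the S6 kinases (Rps6k). The rule found 49 of the 12422 probe sets outside the controls, for 35 of the 8251 genes that have a probe set of 1 symbol. The large subunit of the ribosome was represented by 22 probe sets for 17 genes, and the small subunit by 27 probe sets for 18 genes. Of the 35 genes, 25 had 1 probe set and 10 had several. In a gene with several, the probe sets are numbered by falling mean signal, as in Rpl10a (1) and Rpl10a (2). The symbols include 4 relatives of classical ribosomal protein genes (Rpl7l1, Rpl39l, Rps27l and Rps4l), and RefSeq lists Rps4l as a transcribed pseudogene.

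Total RNA was taken from the spinal cord of B10.PL mice and hybridised to 9 oligonucleotide arrays, 1 for each sample, in 3 groups of 3. The groups were mice with experimental autoimmune encephalomyelitis (EAE, an immune attack on the central nervous system that serves as a model of multiple sclerosis) given 200 ng of calcitriol (replicates 6, 7 and 8), mice with EAE given placebo (replicates 1, 5 and 10), and naive mice (replicates 2, 3 and 4). Both EAE groups were sampled 6 h after treatment. The labels give the naive mice neither a placebo nor a time, and they do not say whether replicates are separate animals, so that the p-values measure a spread between samples that may be technical. They name D2 in the title of calcitriol replicate 6 and D3 in the descriptions.

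A cytosolic ribosome joins a small subunit, which reads the mRNA, to a large subunit, which forms the peptide bond, and each subunit is built from ribosomal RNA and many different proteins. Most ribosomal proteins are present once in each ribosome, and their mRNAs are among the most abundant of the cell. These mRNAs start with a pyrimidine tract, the TOP motif, through which their translation responds to growth signals by way of mTOR. In EAE, blood leukocytes enter the cord and microglia are activated, so the mix of cells that supplies the RNA differs from that of a healthy cord. In total RNA from tissue, fewer cells of a type and less RNA per cell cannot be told apart.

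All 49 probe sets passed the filter on low values, which asked for at least 3 of 9 arrays above the floor. Signals are in array units after every array was scaled to a common mean of 192.8, with a floor of 19.3 before the log2 step. Mean signals over the arrays ran from 15.1 for Rpl38 (2) to 3882 for Rpl41. They reached the common mean in 28 of the 49 probe sets, and 8 had at least 1 array at the floor. An exact 0 was deposited for 4 of their values, once each in Rps3a1 on naive replicate 2, Rps27l on calcitriol replicate 6, and Rps29 (2) and Rps4x (4) on placebo replicate 10. Levels of different probe sets are not compared here, since each probe set has its own brightness.

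The arrays and groups also differed in measures other than these genes. Across all probe sets, the correlation of log2 signals was 0.899 to 0.938 among calcitriol arrays, 0.921 to 0.936 among placebo arrays and 0.765 to 0.878 among naive arrays. The log2 ratio of the 5′ to the 3′ beta-actin control, a measure of RNA integrity, was between -0.83 and -0.52 on calcitriol arrays, between -1.11 and -0.42 on placebo arrays and between -0.25 and 0.12 on naive arrays. The summed signal of 11 myeloid marker genes was 4402 to 7315 on calcitriol arrays, 3840 to 5304 on placebo arrays and 1626 to 1966 on naive arrays, where Cd53, Fcer1g and Lyz2 were at the floor on every array. The sums of 8 neuronal markers went the other way, at 4784 to 5486 with calcitriol, 5138 to 7274 with placebo and 7744 to 14855 in naive cords. Sums of 6 lymphocyte markers overlapped between the groups, at 565 to 716, 472 to 709 and 529 to 740 in that order of groups. So did those of 5 oligodendrocyte markers (3707 to 6129, 5280 to 5835 and 5219 to 6207), while those of 4 astrocyte markers were 3347 to 5048, 5994 to 6630 and 2856 to 4706. The part of RNA integrity and of cell mix in the differences given here was not tested.

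The first comparison set EAE cords given placebo against naive cords and asks how diseased cords differ from naive ones. Rplp0 and Rpl10a (1), both of the large subunit, were called higher in EAE placebo cords, and no member was called lower. Of the 49 probe sets, 2 passed as higher and 0 as lower at an adjusted p of 0.05 (limma, Benjamini-Hochberg over 12177 tested probe sets), against 0.887% of all tested probe sets called higher and 0.0493% called lower. At an unadjusted p of 0.05, 15 were higher (30.6%, against 5.54% of all) and 0 lower (3.79% of all). The difference was above 0 in 40 of the 49 members, or 81.6%, against 47.7% of all tested probe sets. Its median was 0.37 log2 over the members and -0.02 log2 over all. The other 47 did not pass the test.

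The second comparison set EAE cords given calcitriol against the same naive cords. Rplp0, Rpl10a (1), Rps10 and Rpl7a were called higher in EAE calcitriol cords and no member was called lower. These 4 of 49 stand beside 1.68% of all tested probe sets called higher and 0.32% called lower. At an unadjusted p of 0.05, 19 members were higher (38.8%, against 6.68% of all) and 1 was lower, against 5.26% of all. The difference was above 0 in 39 members (79.6%, against 48.0% of all), with a median of 0.33 log2 beside -0.02 log2 over all. Since both comparisons use the same 3 naive arrays, a shift in those arrays moves both, and their results are not independent of each other.

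The third comparison set EAE cords given calcitriol against EAE cords given placebo and asks how diseased cords differ 6 h after the hormone. No member passed the limma test in either direction, and neither did any other probe set (0.0% of 12177). At an unadjusted p of 0.05, 0 members were higher and 0 lower, against 1.27% and 1.31% of all tested probe sets. The difference was above 0 in 30 of 49 members (61.2%, against 49.8% of all), with a median of 0.09 log2. The 95% interval of the difference lay within 1 log2 unit, a 2-fold change, on both sides in 33 of the 49 members. For the other 16 the interval reached a 2-fold change in at least 1 direction. These intervals use a spread shared by all groups, so the naive arrays also set their width. The median SD over the members was 0.40 log2 in naive, 0.27 log2 in calcitriol and 0.17 log2 in placebo arrays.

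**Figure D1:**
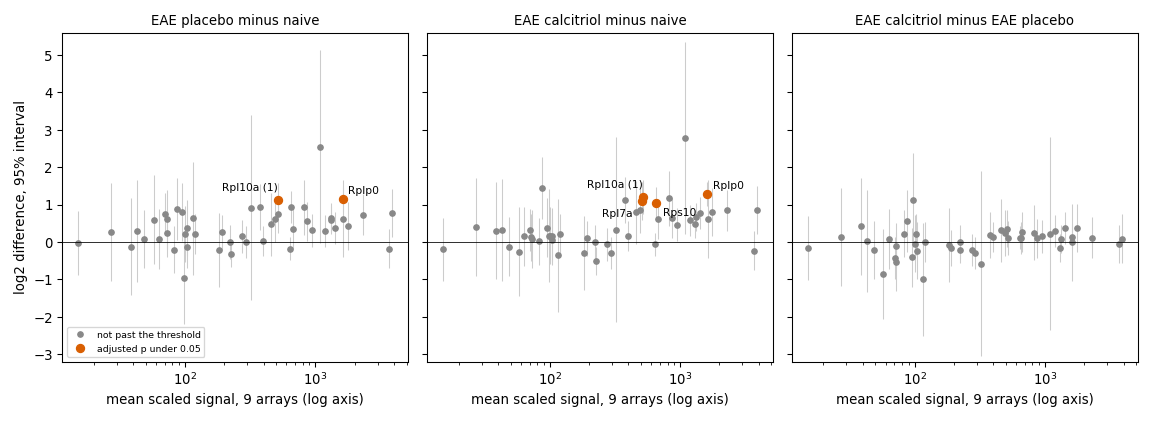
Log2 difference (vertical axis, with its 95% interval) of each of the 49 ribosomal protein probe sets against its mean scaled signal over 9 arrays (horizontal axis, logarithmic), in 3 panels for the comparisons named above them. Orange points passed an adjusted p of 0.05: 2 for EAE placebo minus naive, 4 for EAE calcitriol minus naive and none for EAE calcitriol minus EAE placebo, where most points lie close to 0.

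The stalk of the large subunit is the flexible arm that recruits elongation factors, and Rplp0 is the protein that anchors it. The signal of Rplp0 was 2160, 1791 and 2346 on calcitriol arrays, 1892, 1841 and 1923 on placebo arrays and 886.9, 856.5 and 826.3 on naive arrays. Every EAE array stood above every naive array, and the EAE groups overlapped. Rplp0 was 2.20-fold higher in EAE placebo than in naive cords (1.14 ± 0.14 log2, SE, adjusted p = 0.00886) and 2.44-fold higher in EAE calcitriol than in naive cords (1.28 ± 0.14 log2, adjusted p = 0.00312). Between calcitriol and placebo the difference was 0.15 log2, with a 95% interval of -0.18 to 0.47. Naive arrays agreed closely on this gene, with an SD of 0.05 log2, beside a median SD of 0.40 log2 over the 49 members. The stalk's other proteins, Rplp1 and Rplp2, had no probe set of a single symbol.

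Rpl10a is a large subunit protein of the arm opposite the stalk. Rpl10a (1) had signals of 609.4, 568.0 and 783.3 on calcitriol arrays, 576.1, 644.2 and 597.7 on placebo arrays and 208.9, 346.7 and 303.1 on naive arrays. As with Rplp0, no naive array reached an EAE array. The gene was 2.16-fold higher in EAE placebo (1.11 ± 0.20 log2, adjusted p = 0.0386) and 2.31-fold higher in EAE calcitriol (1.21 ± 0.20 log2, adjusted p = 0.0160), each against naive. Its dimmer probe set, Rpl10a (2), had 77.0, 203.6 and 114.6 units with calcitriol, 67.9, 100.7 and 83.1 with placebo and 50.6, 52.0 and 34.5 in naive cords. These groups did not overlap with naive either, but the differences of 0.88 and 1.44 log2 did not pass the test (adjusted p = 0.486 for placebo and 0.106 for calcitriol).

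Rpl7a, a protein of the large subunit, passed the test in the comparison of calcitriol with naive. Its signals were 539.8, 631.7 and 894.8 on calcitriol arrays, 557.5, 461.1 and 569.9 on placebo arrays and 374.2, 341.1 and 244.3 on naive arrays. The EAE arrays were all above the naive ones, with calcitriol replicate 8 the highest. Rpl7a was 2.14-fold higher in EAE calcitriol than in naive cords (1.10 ± 0.22 log2, adjusted p = 0.0381). In EAE placebo the difference from naive was 0.74 ± 0.22 log2 and did not pass (adjusted p = 0.247). The difference between calcitriol and placebo was 0.35 log2, with an interval of -0.15 to 0.85.

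Rps10, a protein of the small subunit at the mRNA entry side, had signals of 674.6, 744.4 and 1038 on calcitriol arrays, 770.2, 684.3 and 797.6 on placebo arrays and 436.1, 422.2 and 319.4 on naive arrays. Both EAE groups lay wholly above naive. Rps10 was 2.07-fold higher in EAE calcitriol than in naive cords (1.05 ± 0.19 log2, adjusted p = 0.0240). The difference of 0.95 ± 0.19 log2 between EAE placebo and naive missed the threshold (adjusted p = 0.0588).

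The calls depended on single arrays in different degrees. The call of Rplp0 in EAE placebo was lost without placebo replicate 5 (adjusted p = 0.0594) and held without each other array, and its call in EAE calcitriol held without any 1 of the 9 arrays. The call of Rpl10a (1) in EAE calcitriol was lost without calcitriol replicate 6 or 8, and in EAE placebo it was lost without any 1 array other than calcitriol replicate 8 or naive replicate 2. Rps10 lost its call without calcitriol replicate 7 or 8 or naive replicate 3 or 4. Rpl7a kept its call only without naive replicate 2. Without naive replicate 2, 9 members passed in EAE placebo and 17 in EAE calcitriol, all higher, against 1.34% and 2.62% of all 12153 probe sets then tested.

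The longest pyrimidine tract near the annotated start of each called gene is shown, since TOP mRNAs begin with such a tract (sequences from RefSeq, GRCm38.p6). The search covered 30 bases to either side of each annotated start, on the strand of the mRNA alone, for an unbroken run of C and T beginning with C. Capitals mark the run, 5′ to 3′. The windows are chr5:115559470-115559499 on the plus strand for Rplp0, chr17:28328572-28328601 on the plus strand for Rpl10a, chr2:26910785-26910814 on the plus strand for Rpl7a and chr17:27635228-27635257 on the minus strand for Rps10.
Rplp0: ccgcctggttCTCCTataaaaggcacacgc
Rpl10a: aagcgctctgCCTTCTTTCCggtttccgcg
Rpl7a: ccccacaattCCCTCTTCTTTCTTTCTCCa
Rps10: gccgcgcacgCCCCTTCCTTTCCagcctcc
The runs are 5, 10, 19 and 13 bases long in that order. They begin at offsets of 13, 17, -12 and -3 bases from the annotated start, so none begins at it. Rpl10a has a further annotated start, whose longest run of 7 bases is not shown. A run of 8 or more bases was found in 15 of the 37 windows of member genes (40.5%), against 5967 of all 32851 windows in the table (18.2%). By gene, 14 of the 28 member genes with a window held one. A gene with several windows has more chances to hold such a run, and no share by gene over all genes is given. The longest run of each member gene had a median of 7.5 bases, also without a value over all genes. Over member windows the median run was 6 bases, against 5 over all windows. The run of Rplp0 thus has the median length of all windows. A match describes these letters and not a measured transcript start.

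**Figure D2:**
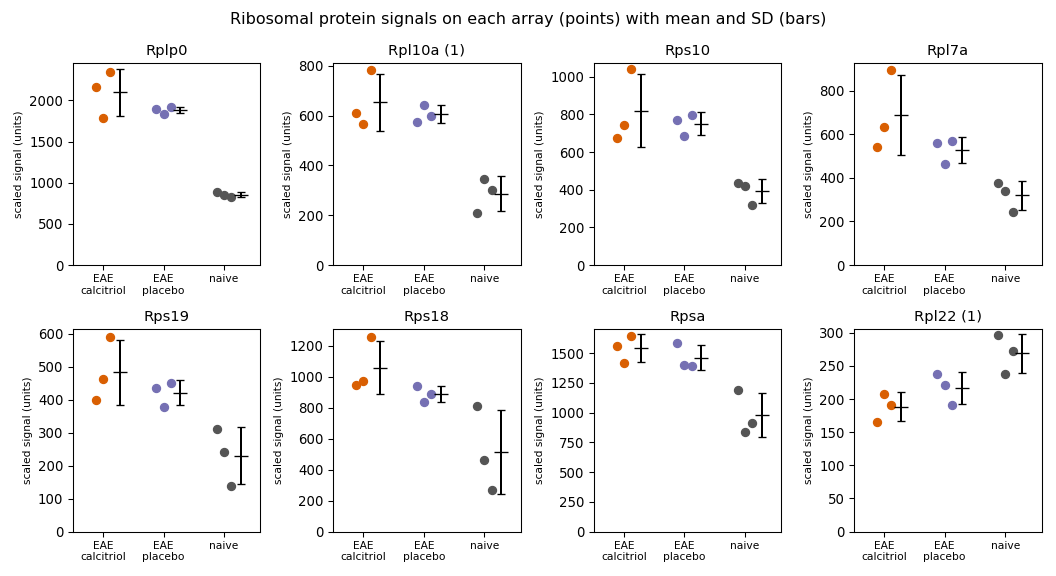
Scaled signal (vertical axis, linear from 0) of 8 ribosomal protein probe sets on each of the 9 arrays, with EAE calcitriol, EAE placebo and naive arrays from left to right, points for arrays and black bars for the group mean and SD. For Rplp0, all EAE arrays lie at 1791 or above and all naive arrays at 886.9 or below.

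Among the other large subunit proteins, Rpl19, which lies near the peptide exit tunnel, had probe sets that differed. Rpl19 (1) had signals of 1307, 1216 and 1642 with calcitriol, 1747, 1564 and 1345 with placebo and 1051, 1010 and 889.9 in naive cords, without overlap between EAE and naive. The difference of EAE placebo from naive was 0.65 log2 (adjusted p = 0.157). Rpl19 (2) had 734.1, 596.7 and 607.2 with calcitriol, 583.0, 618.1 and 581.4 with placebo and 622.2, 643.0 and 760.8 in naive cords. There, the placebo arrays all lay below the naive arrays, by 0.18 on the log2 scale (-0.18, adjusted p = 0.762), so probe sets of 1 gene pointed in opposite directions without either passing the test.

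Rpl22, a large subunit protein at the tunnel exit that is known for its part in T cell development, gave the member furthest below 0 in calcitriol against naive. Rpl22 (1) had signals of 164.6, 208.1 and 191.6 with calcitriol, 238.5, 221.2 and 190.8 with placebo and 297.0, 237.4 and 272.1 in naive cords. All calcitriol arrays lay below all naive arrays (-0.52 ± 0.16 log2, 95% interval -0.88 to -0.15, adjusted p = 0.20), and placebo overlapped with both. Rpl22 (2) showed no such order, with differences from naive of 0.26 log2 in placebo and 0.10 log2 in calcitriol. Over the 5 probe sets of exit tunnel proteins (Rpl19, Rpl22 and Rpl39), the median difference was 0.26 log2 in placebo against naive, 0.10 log2 in calcitriol against naive and -0.16 log2 in calcitriol against placebo, with no call.

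Over the whole large subunit, 19 of 22 probe sets were above 0 in EAE placebo against naive, with a median of 0.43 log2, and 17 of 22 in EAE calcitriol against naive, with a median of 0.32 log2. In calcitriol against placebo 12 of 22 were above 0, with a median of 0.02 log2. Rpl41, which encodes the smallest ribosomal protein, was among the brightest members, at 4388, 4478 and 4975 with calcitriol, 4337, 4028 and 4621 with placebo and 4139, 2019 and 1954 in naive cords. Naive replicate 2 stood near the EAE arrays, and the other naive arrays were far below them. The differences of Rpl41 from naive were 0.77 log2 in placebo (adjusted p = 0.405) and 0.86 log2 in calcitriol (adjusted p = 0.236). No probe set of a single symbol represented Rpl3, a protein near the peptide-bond centre, or the proteins that bind the small 5S RNA (Rpl5 and Rpl11).

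In the small subunit, 21 of 27 probe sets were above 0 in EAE placebo against naive, with a median of 0.29 log2. In EAE calcitriol against naive 22 of 27 were above 0, with a median of 0.33 log2 and Rps10 as the 1 call. Rpsa, also known as the laminin receptor precursor, had signals of 1561, 1415 and 1647 with calcitriol, 1582, 1403 and 1395 with placebo and 1186, 839.1 and 909.9 in naive cords. The EAE arrays were all above the naive arrays, by 0.59 log2 in placebo (adjusted p = 0.20) and 0.67 log2 in calcitriol (adjusted p = 0.0866).

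Rps19, mutated in Diamond-Blackfan anaemia in humans, had signals of 397.6, 461.6 and 591.4 with calcitriol, 435.6, 377.4 and 451.7 with placebo and 310.6, 240.3 and 139.3 in naive cords. Its groups did not overlap with naive, yet the naive arrays themselves spread over more than a 2-fold range. The differences from naive were 0.95 log2 in placebo (adjusted p = 0.228) and 1.13 log2 in calcitriol (adjusted p = 0.0865). Rps18, a small subunit head protein, had 948.1, 971.0 and 1256 with calcitriol, 941.2, 835.6 and 888.0 with placebo and 809.1, 465.0 and 268.9 in naive cords. It was among the few members whose groups were fully ordered, with calcitriol above placebo and placebo above naive, and no difference passed (adjusted p = 0.363 for placebo and 0.141 for calcitriol against naive, and 1 between them).

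Rps3, a protein of the mRNA entry channel that also has a role in DNA repair, had signals of 1340, 1287 and 1668 with calcitriol, 1257, 1067 and 1177 with placebo and 1214, 915.2 and 779.4 in naive cords. Calcitriol arrays were all above both other groups, while placebo overlapped with naive. The difference of calcitriol from placebo was 0.29 log2 (adjusted p = 1) and from naive 0.58 log2 (adjusted p = 0.217). Rps7, a small subunit protein that binds Mdm2, had 1657, 1547 and 2211 with calcitriol, 1466, 1283 and 1360 with placebo and 1264, 1058 and 863.3 in naive cords. Its 3 groups did not overlap, and calcitriol exceeded placebo by 0.38 log2, with an interval of -0.05 to 0.81 (adjusted p = 1).

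Rps3a1, which lies on the side of the small subunit where initiation factors bind, had the largest fitted difference from naive of all members, and it rests on 1 array. Its signals were 1180, 1591 and 1739 with calcitriol, 1467, 1073 and 1305 with placebo and 0, 847.9 and 625.5 in naive cords. The value of naive replicate 2 is listed as 0, although the other naive arrays were bright, and after the floor it yields differences of 2.55 log2 for placebo (adjusted p = 0.542) and 2.77 log2 for calcitriol (adjusted p = 0.371). With exact zeros treated as missing, or without naive replicate 2, Rps3a1 passed in calcitriol against naive. Rps27, a small subunit protein with a zinc finger, was flat, with mean signals of 432.5 ± 120 with calcitriol, 384.9 ± 14.6 with placebo and 376.5 ± 7.97 in naive cords (SD, n = 3 each). Rps13, a small subunit protein, was among the brightest members and had 4045, 3263 and 2964 with calcitriol, 3381, 3824 and 3391 with placebo and 3052, 4620 and 4473 in naive cords. Its groups overlapped, with differences from naive of -0.17 log2 in placebo and -0.23 log2 in calcitriol. Rps6, the substrate of the S6 kinases, and Rps27a, made as a fusion with ubiquitin, had no probe set of a single symbol.

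Rps4x, the X-linked gene of a small subunit protein, had 5 probe sets. The brightest, Rps4x (1), had signals of 2172, 1925 and 2569 with calcitriol, 1477, 1679 and 2014 with placebo and 2041, 1073 and 922.4 in naive cords. Naive replicate 2 lay within the EAE range and the other naive arrays below it. Its differences from naive were 0.44 log2 in placebo and 0.80 log2 in calcitriol, while the other 4 gave -0.22, -0.14, -0.96 and 0.80 log2 in placebo against naive, and none passed. The value of -0.96 log2 belongs to Rps4x (4), whose signals were 125.9, 130.2 and 106.3 with calcitriol, 79.5, 110.0 and 0 with placebo and 81.7, 107.5 and 140.2 in naive cords, with the exact 0 on placebo replicate 10.

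Rps28, a short protein at the mRNA exit, had 3 probe sets. Rps28 (1) had signals of 2482, 2703 and 3097 with calcitriol, 2740, 2139 and 2809 with placebo and 2190, 1401 and 1165 in naive cords. Rps28 (2) had 572.6, 474.2 and 794.3, then 490.6, 478.5 and 555.5, and then 479.9, 332.3 and 229.7 in the same order of groups. In both, naive replicate 2 was the highest naive array and calcitriol replicate 8 the highest of all, and both gave 0.85 log2 in calcitriol against naive (adjusted p = 0.153 and 0.197). Rps28 (3) behaved otherwise, with 426.0, 153.8 and 171.5 for calcitriol, 357.4, 425.7 and 249.0 for placebo and 8.52, 464.6 and 634.2 for naive, where naive replicate 2 was below the floor. Of the 10 genes with several probe sets, 5 had probe sets of opposite sign in placebo against naive, 4 in calcitriol against naive and 4 in calcitriol against placebo.

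**Figure D3:**
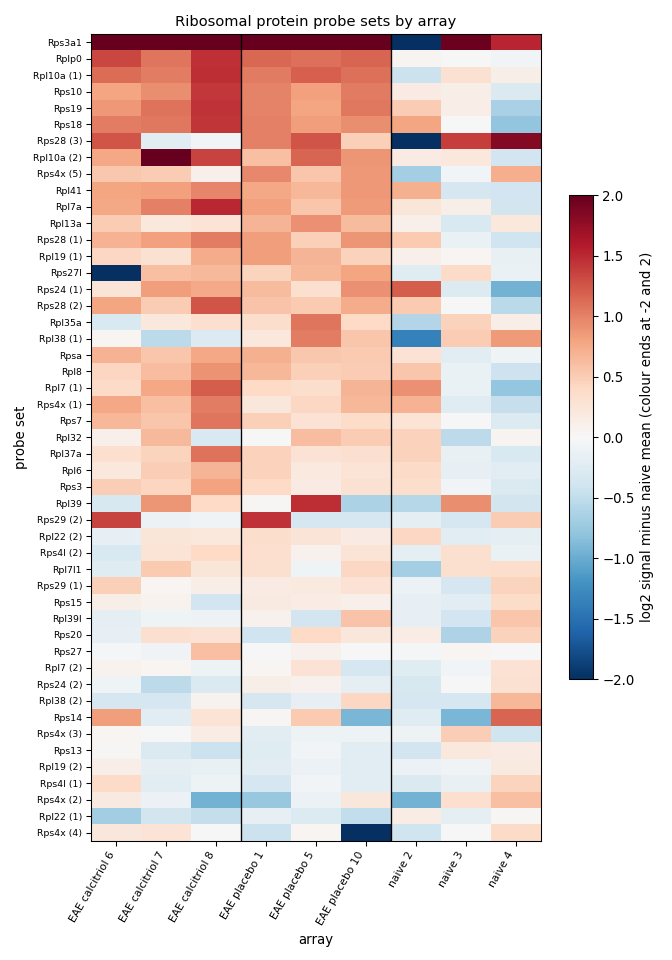
Log2 signal of each of the 49 ribosomal protein probe sets (rows, sorted by EAE placebo minus naive) on each of the 9 arrays (columns, EAE calcitriol, then EAE placebo, then naive), with colour for the log2 difference from the naive mean, ending at -2 and 2. Rplp0 and Rpl10a (1), near the top, are higher on all EAE columns, while Rpl19 (2) and Rpl22 (1), near the bottom, are not.

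Between calcitriol and placebo, the members with the smallest unadjusted p are given as not past the threshold. On the higher side these were Rps4x (4) at 1.12 log2, which rests on the exact 0 given above, Rps7, Rpl7a and Rps3 with the values above, Rpl10a (2) at 0.55 log2 and Rps4x (1) at 0.37 log2. On the lower side was Rpl13a, a large subunit protein that also takes part in the interferon-controlled silencing of inflammatory mRNAs. Rpl13a had signals of 75.8, 61.8 and 64.3 with calcitriol, 85.9, 101.2 and 82.6 with placebo and 57.1, 43.1 and 62.1 in naive cords. The calcitriol arrays lay between placebo and naive, below every placebo array (-0.42 log2, adjusted p = 1) and overlapping with naive. The others were Rpl38 (1) at -0.86 log2, Rpl35a at -0.52 log2, Rps24 (2) at -0.30 log2, Rpl22 (1) at -0.21 log2 and Rps27l at -0.99 log2, of which the last has an exact 0 on calcitriol replicate 6. Calcitriol lay wholly above placebo in 4 members and wholly below it in 4, against 4.82% and 5.17% of all tested probe sets.

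Overlap between groups was also counted against naive. EAE placebo lay wholly above naive in 13 of 49 members (26.5%) and wholly below in 1, against 7.39% and 7.13% of all tested probe sets. EAE calcitriol lay wholly above naive in 14 (28.6%) and wholly below in 1, against 8.45% and 7.69%. The members below were Rpl19 (2) in placebo and Rpl22 (1) in calcitriol.

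Median differences from naive were larger among the brighter members. Among the 28 whose mean signal reached the common mean, 25 were above 0 in EAE placebo against naive (89.3%), with a median of 0.57 log2, and 23 in EAE calcitriol against naive (82.1%), with a median of 0.66 log2. Of all 4419 tested probe sets that reached the common mean, members included, 46.2% and 46.1% were above 0, with medians of -0.02 and -0.03 log2. They share this lower limit with the members and were not matched to them in brightness. Before adjustment, 12 of the 28 were higher at p under 0.05 in placebo (42.9%, against 7.4% of those 4419) and 18 in calcitriol (64.3%, against 8.83%). Of the 21 dimmer members, 15 were above 0 in placebo (71.4%) and 16 in calcitriol (76.2%), with medians of 0.23 and 0.15 log2. This split was chosen after the values were seen, and its difference was not tested. A further 39 probe sets carry a ribosomal protein symbol beside others and are outside the rule. Their medians were 0.57 log2 in placebo against naive, 0.75 log2 in calcitriol against naive and 0.18 log2 in calcitriol against placebo, with 34, 37 and 31 of 39 above 0 and 4 calls, all higher in calcitriol against naive.

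The level of these genes also varied among arrays of a group. Over all 49 members, the median log2 difference of an array from the naive mean was 0.39, 0.43 and 0.40 on calcitriol arrays, 0.40, 0.40 and 0.42 on placebo arrays and -0.027, -0.052 and -0.0056 on naive arrays. These medians were higher on all EAE arrays than on the naive arrays, and within each group they lay close together. Naive arrays were set against their own mean, which draws their medians towards 0. For the 28 brighter members it was 0.58, 0.55 and 0.93 log2 on calcitriol arrays, 0.60, 0.44 and 0.52 log2 on placebo arrays and 0.26, -0.03 and -0.25 log2 on naive arrays. In this subset, chosen after the values were seen, calcitriol replicate 8 was the highest and the naive arrays were further apart. For the 21 dimmer members the medians were 0.03, 0.21 and 0.15 log2 on calcitriol arrays and 0.17, 0.25 and 0.29 log2 on placebo arrays. On naive arrays they were -0.24, -0.06 and 0.39 log2. Naive replicates 2 and 4 thus had opposite signs in the brighter and dimmer members, which the median over all 49 does not show. Calcitriol replicate 8 was the highest of its group in 25 of the 49 members (51.0%, against 31.9% of all probe sets), and the lowest in 7 (14.3%, against 31.3%). Naive replicate 2 was the highest of its group in 21 (42.9%, against 34.9%) and the lowest in 18 (36.7%, against 38.3%). Among the 28 brighter members, calcitriol replicate 8 was the highest in 20 and naive replicate 2 in 19. No share over all probe sets that reached the common mean is given beside these counts, so they cannot be set apart from bright probe sets in general. A control probe set at the 3′ end of the 18S ribosomal RNA read 1813, 2396 and 6952 on calcitriol arrays, 2737, 1618 and 3285 on placebo arrays and 83.4, 1360 and 2173 on naive arrays. It was highest on calcitriol replicate 8 and lowest on naive replicate 2. Its part in the results was not tested.

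**Figure D4:**
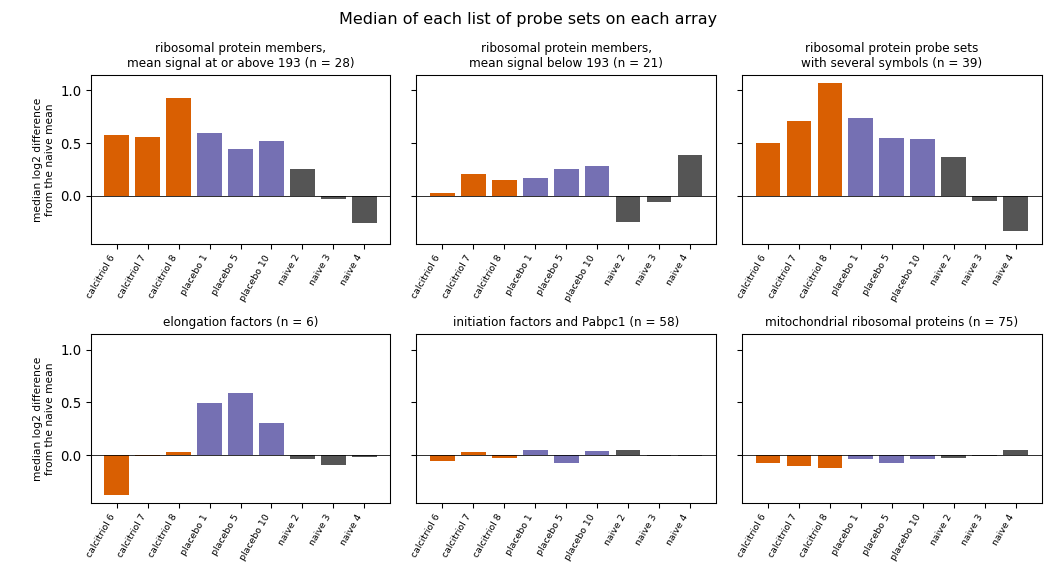
Median log2 difference from the naive mean (vertical axis) on each of the 9 arrays (bars), with EAE calcitriol, EAE placebo and naive arrays from left to right, in 6 panels for lists of ribosomal protein and other translation probe sets. The brighter ribosomal protein members reach 0.93 on calcitriol replicate 8 and -0.25 on naive replicate 4, while mitochondrial ribosomal proteins stay near 0 on every array.

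Other genes of the translation apparatus are given beside the ribosomal proteins. Of 58 probe sets for initiation factors and the poly(A)-binding protein Pabpc1, 0 passed in placebo against naive and 1 passed as higher in calcitriol against naive, with medians of -0.00 and -0.03 log2. That share is near the 1.68% of all tested probe sets called higher. The probe set was that of Pabpc1, itself encoded by a TOP mRNA, with signals of 1432, 943.7 and 1161 on calcitriol arrays, 877.7, 903.3 and 1019 on placebo arrays and 680.4, 615.6 and 677.3 on naive arrays. It was higher by 0.82 ± 0.17 log2 in calcitriol (adjusted p = 0.0371), while the 0.50 log2 of placebo did not pass (adjusted p = 0.320). Eif2ak4, the kinase Gcn2 that senses missing amino acids, had signals of 24.2, 41.9 and 45.0 with calcitriol, values below the floor of 19.3 on all 3 placebo arrays, and 57.6, 59.0 and 50.7 in naive cords. With every placebo value set by the floor, no fold is given, and the gene did not pass the limma test in placebo against naive (adjusted p = 0.0622).

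The 6 probe sets of elongation factors had medians of 0.50 log2 in placebo against naive, 0.13 log2 in calcitriol against naive and -0.35 log2 in calcitriol against placebo, and none passed the limma test. Without adjustment, 1 was higher at p under 0.05 in each comparison with naive and 0 in calcitriol against placebo. In placebo against naive it was a dim probe set of Eef1b2, at 1.07 log2 (adjusted p = 0.506). Its naive signals were 16.2, 28.8 and 49.0, the first below the floor. A second Eef1b2 probe set, at 0.73 log2, read 33.7, 447.3 and 564.1 on naive arrays. These differences were the highest of the list, and among naive arrays both probe sets were lowest on naive replicate 2. Over all arrays the dim probe set was lowest on calcitriol replicate 6, at -0.31, which is below the floor. Eef1a1, the form of the tRNA-carrying factor made in most cells, had signals of 3629, 3633 and 4984 with calcitriol, 3275, 3830 and 3337 with placebo and 3828, 1898 and 1649 in naive cords. For Eef1a1, naive replicate 2 lay within the EAE range, and the difference of calcitriol from naive was 0.82 log2 (adjusted p = 0.310). Eef1a2, the form that replaces it in neurons and muscle, had 3115, 2953 and 2665 with calcitriol, 4130, 3894 and 3443 with placebo and 4563, 3569 and 3607 in naive cords. Its calcitriol arrays lay below those of both other groups (-0.39 log2 against placebo with adjusted p = 1, and -0.42 log2 against naive with adjusted p = 0.435). The 7 probe sets of other TOP mRNAs had medians of 0.20, 0.13 and 0.05 log2 in the same order and no call, with 1 probe set higher at an unadjusted p of 0.05 in each comparison with naive. Among them Tpt1, a translationally controlled growth protein, was at 0.65 log2 in placebo (adjusted p = 0.474) and 0.77 log2 in calcitriol (adjusted p = 0.259). The 25 probe sets of ribosome biogenesis genes had medians of -0.11, -0.06 and 0.04 log2, also without a call. Before adjustment, at the same 0.05, 3 were higher and 1 lower in placebo against naive, 2 higher and 0 lower in calcitriol against naive, and 0 higher and 1 lower in calcitriol against placebo. Over all tested probe sets, 5.54% were higher and 3.79% lower in placebo, and 6.68% higher and 5.26% lower in calcitriol, each against naive. Within that list Myc, the transcription factor that drives ribosome production, had signals of 50.4, 51.6 and 28.2 on placebo arrays and was below the floor on all 3 naive arrays, so no fold is given. It did not pass the limma test in placebo against naive (adjusted p = 0.229). On calcitriol arrays Myc read -16.7, which is below the floor, 25.1 and 23.0, all lower than on placebo arrays. Myc was the 1 probe set of the list lower before adjustment in calcitriol against placebo. Nolc1, a nucleolar chaperone, was at -1.08 log2 in placebo against naive (adjusted p = 0.240).

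The mitochondrial ribosomal proteins, which build a separate ribosome inside mitochondria, had median differences near 0. Their 75 probe sets for 61 genes had medians of -0.02 log2 in placebo against naive, -0.08 log2 in calcitriol against naive and -0.04 log2 in calcitriol against placebo, and none passed the limma test. Unadjusted, 0 were higher and 0 lower at p under 0.05 in placebo against naive, 1 higher and 3 lower in calcitriol against naive, and 0 higher and 2 lower in calcitriol against placebo. In calcitriol against naive, the 3 of 75 lower are close to the 5.26% of all tested probe sets. Mrps33, with the smallest p of the list in calcitriol against naive, had signals of 39.0, 0 and 56.6 with calcitriol, 84.0, 49.0 and 62.9 with placebo and 132.6, 70.5 and 85.5 in naive cords. Its fitted difference of -1.41 log2 from naive (adjusted p = 0.183) takes in an exact 0 on calcitriol replicate 7. The 3 probe sets of S6 kinases had medians of -0.18, -0.07 and 0.11 log2 in the same order, and none passed the limma test or an unadjusted p of 0.05.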

How the data were processed

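Each of 9 one-colour arrays has a deposited linear intensity for 12488 probe sets. The summary and scaling steps of the authors are not stated in the labels. The arrays were brought to a common mean of 192.8, trimmed by 2% at each end over 12422 probe sets outside the 66 controls. Values under 19.3, which is 10% of that mean, were set to it before the log2 step. Probe sets above the floor on at least 3 arrays were tested, 12177 in all. One limma fit (limma 3.58.1, R 4.3.3, lmFit and eBayes with an intensity trend) over 9 arrays gave the 3 comparisons, with Benjamini-Hochberg adjustment over all tested probe sets, a threshold of 0.05, two-sided p-values and SE from the fit. Because the groups share 1 spread per probe set, SEs are the same in each comparison. The fit was tested on simulated data, which had 1 spread per probe set for all groups and no exact zeros. That test does not cover the unequal spread of the real groups, with a median SD of 0.36 log2 in naive, 0.25 log2 in calcitriol and 0.23 log2 in placebo arrays. The number of arrays limits the precision: the median SE of a member's log2 difference was 0.27.

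Probe sets were named from the platform annotation, in which 10855 have 1 symbol, 396 several and 1237 none, and all 49 members matched RefSeq by gene identifier. Probe sets of 1 gene were kept apart. Probe sets may share signal between near-identical ribosomal protein genes and their pseudogenes, which cannot be told apart here. The members and lists were chosen with earlier results of these data known. Named members were those past the threshold and otherwise, to 6 in each direction, those with the smallest unadjusted p, together with Rplp0, Rpsa, Rps3 and genes with 3 or more probe sets. Rps18, Rps3a1, Rps27, Rpl41 and the dimmer probe sets of Rpl10a and Rpl22 were chosen after their values were seen. Alternatives changed the scaling, floor, filter, treatment of exact zeros, array weights, model and arrays used. Plots were drawn with matplotlib 3.10.9 on Python 3.11.15.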

Additional observations from a re-analysis of the deposited data

How the results depend on the processing

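The counts of called members in placebo against naive (2) and calcitriol against naive (4) were the least stable values, while calcitriol against placebo had no called member under any alternative. With array weights 12 and 19 members passed, with no intensity trend 1 and 2, with only the compared groups in the fit 1 and 1, and with the probe sets of several symbols added 8 passed in calcitriol against naive. Leaving out 1 array at a time gave 0 to 9 in placebo against naive (0 without placebo replicate 5, 9 without naive replicate 2) and 1 to 17 in calcitriol against naive (1 without calcitriol replicate 8, 17 without naive replicate 2). The median member difference stayed above 0 in all alternatives. In placebo against naive (0.37 log2) it was 0.51 with signals as deposited, 0.40 after quantile normalization, 0.44 with a filter on the mean, 0.47 with array weights, 0.30 over plain probe sets, 0.57 over brighter members, 0.52 with several symbols and 0.34 to 0.46 without 1 array. In calcitriol against naive (0.33 log2) it was 0.44, 0.19, 0.45, 0.36, 0.66 and 0.61 as deposited, after quantile normalization, with array weights, over plain probe sets, over brighter members and with several symbols, 0.38 and 0.22 with the floor at 5% and 20%, and 0.30 to 0.41 without 1 array. In calcitriol against placebo (0.09 log2) it was 0.057 after quantile normalization, 0.11 over brighter members, 0.14 with several symbols and 0.027 to 0.13 without 1 array. Signals as deposited also moved the median of all tested probe sets to 0.11 in placebo and 0.09 in calcitriol against naive, and the members' medians under that setting are read against it. Array weights raised the calls over all probe sets as well, to 462 higher in placebo (108 without weights) and 653 higher in calcitriol (205 without weights), each against naive. Naive replicate 3 had a weight of 4.38, and naive replicates 2 and 4 had 0.26 and 0.41. The weighted naive level therefore rests mainly on naive replicate 3. The brighter members and the several symbols were alternatives chosen after seeing the data. Of 682 alternative values of 36 named differences, 629 kept direction and side of the threshold, 29 lost their call, 16 gained one and 8 turned direction, none of which was a called value. Most of the 36 were not called to begin with, so only the called ones could lose a call. Of 19 alternatives, calls in placebo against naive held in 18 for Rplp0 and 10 for Rpl10a (1). Calls in calcitriol against naive held in 19 for Rplp0, 16 for Rpl10a (1), 13 for Rps10 and 9 for Rpl7a. Turned values were, in calcitriol against naive, Rps27l at 0.63 with exact zeros missing (-0.85 to 0.63 without 1 array), Rpl38 (2) at 0.061 with array weights (-0.36 to 0.13 without 1 array) and Rps4x (2) (-0.77 to 0.029 without 1 array), and in placebo against naive Rps4l (1) (-0.35 to 0.016) and Rps4x (3) (-0.34 to 0.10). Apart from Rps27l, whose exact 0 is the value left out, the cause was not tested. No paired analysis was possible because no replicate number is shared by 2 groups. With 3 arrays a group and dim members near the floor, small differences were not detectable.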
